A study of Mus musculus with 4 samples.

Results

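The renin-angiotensin system genes described here are 7 of the 21046 genes in the deposited table. They were chosen by name, with earlier results of these data known: Ren1, Agt, Ace, Agtr1a, Enpep, Mme and Atp6ap2. Renin, made by the granular cells of the afferent arteriole, cuts angiotensinogen to angiotensin I, and angiotensin-converting enzyme turns that into angiotensin II. Angiotensin II acts on the AT1 receptor to constrict vessels and to raise sodium uptake in the tubule. Peptidases on the cell surface then shorten the peptides: aminopeptidase A (Enpep) removes the first residue of angiotensin II, and neprilysin (Mme) makes angiotensin 1-7 from angiotensin I. Atp6ap2, the (pro)renin receptor, binds renin and prorenin and is also an accessory protein of the vacuolar proton pump.

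Nuclei of mouse kidney cortex were profiled on the 10X Chromium system, which counts RNA molecules by unique molecular identifiers (UMIs). The labels give 4 genotypes on C57BL/6J with 1 library each: Klf4flox/flox, the control; Klf4deltaEC, which lacks the transcription factor Klf4 in endothelial cells and is called Klf4 dEC here; Nos3-/-, which lacks endothelial nitric oxide synthase and is called Nos3 null; and Klf4deltaECNos3-/-, with both changes, called the double mutant. The sources used here do not give age, sex, the driver of the endothelial deletion or the number of mice in a library. The question the design implies is what loss of endothelial Klf4 does to the kidney with and without Nos3.

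A level is the mean UMIs per 10000 over nuclei of 1 of 23 clusters in 1 library. All values below keep the order control, Klf4 dEC, Nos3 null, double mutant, in which the libraries held 6766, 6883, 7004 and 5491 nuclei. Depth was lowest in Nos3 null, at 1970 effective UMIs per nucleus against 2897 to 3630 in the other libraries. In the endothelium-like cluster 10 the targeted genes were not lower under their labels: Klf4 was at 0.621, 0.779, 0.445 and 0.825, and Nos3 at 1.26, 0.93, 1.52 and 2.07. The table does not show which part of a transcript was counted, so these values do not check the deletions, and a genotype named below is that of a library's label. By marker genes, 18 clusters received a name and 5 did not; barcodes of single nuclei were not analysed here. Every genotype has 1 library, and no test between genotypes was run. Intervals in parentheses are exact 95% Poisson intervals of a level or exact 95% binomial intervals of a ratio; they cover counting error only and say nothing of the spread between mice.

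The 7 genes had little in common in where they were found. In the heat map of levels by cluster, the highest mean over the 4 libraries fell in the unnamed stromal-like cluster 13 for Ren1 and Agtr1a, in a proximal tubule-like cluster for Ace and, barely ahead of the unnamed cluster 12, for Agt, in the podocyte-like cluster for Enpep and in an intercalated cell-like cluster for Mme and Atp6ap2. Over the 21 pairs of members, Pearson's r of log2 levels across the 23 clusters ran from -0.32 (Ace with Atp6ap2) to 0.48 (Ace with Agt). This is a description only, since the clusters share libraries and depth. Detection differed widely: Mme and Enpep were above 0 in all 92 columns, while Ren1 was at 0 in 45 of them. Levels are not compared between genes, because longer genes give more nuclear reads and the span runs from 9.8 kb for Ren1 to 144.5 kb for Mme.

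**Figure D1:**
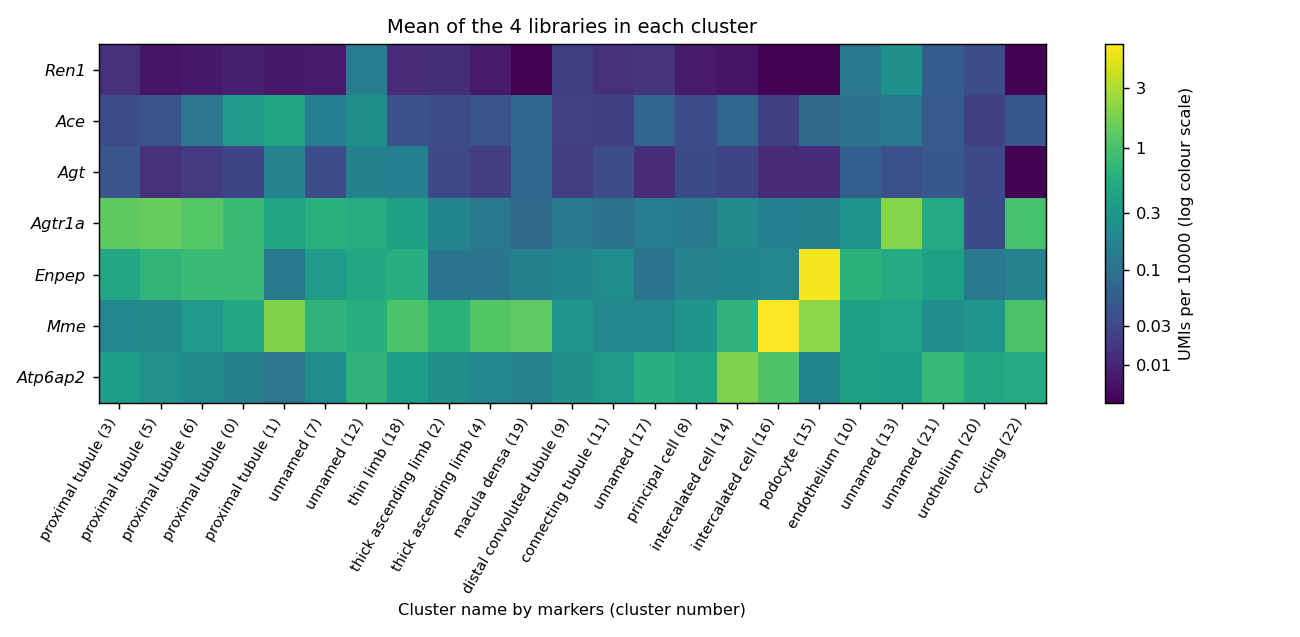
Mean level over the 4 libraries of each of the 7 genes (rows) in each of the 23 clusters (columns, with their names by markers), in UMIs per 10000 on a logarithmic colour scale. Enpep stands out in the podocyte-like cluster 15 (6.06), Mme in the intercalated cell-like cluster 16 (6.61) and Agtr1a in cluster 13 (2.01) and the proximal clusters.

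Ren1 (chromosome 1, 133350510 to 133360325, plus strand; coordinates throughout are those of GENCODE M21 on GRCm38, which is mm10) encodes renin. Its level in cluster 13 was 0.395 (0.205 to 0.69) in control, 0.522 (0.347 to 0.754) in Klf4 dEC, 0.0578 (0.0101 to 0.181) in Nos3 null and 0.0166 (up to 0.209) in the double mutant. Both libraries with intact Nos3 were therefore high and both Nos3-/- libraries low, and the intervals of the first pair did not overlap that of Nos3 null. The counts are small: about 12.1, 28.1, 2.61 and 0.349 effective UMIs. In each of the 2 low libraries the value is that of a single nucleus, with 1 Ren1 UMI of 739 in Nos3 null and 1 of 7174 in the double mutant (or the same multiple of both numbers). The Nos3 null interval was computed from 2.61 effective UMIs. From 1 UMI it would be wider, so the lack of overlap with control is not firm.

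Cluster 13 mixes cell types, which limits it as a stand-in for renin cells. Proximal tubule markers (12 genes) summed to 72.5, 67.39, 74.84 and 81.87 UMIs per 10000 in it. Over the proximal tubule-like clusters they summed to 158.5, 161.5, 148.6 and 148.1. Endothelium markers (11 genes) summed to 17.97, 13.69, 13.14 and 15.11 in cluster 13. Mural and smooth muscle markers (8 genes) summed to 6.63, 7.76, 8.86 and 11.8 UMIs per 10000 there, with none at 0. The 4 juxtaglomerular markers other than renin (Akr1b7, Rgs5, Aldh1a2, Ppp1r14a) summed to 1.00, 0.562, 0.619 and 0.667, none at 0, and 6 fibroblast markers to 5.80, 4.45, 2.96 and 3.66. The fibroblast sum was thus lower in both Nos3-/- libraries, as Ren1 was, while the mural sum was higher in both; the part of the cluster's makeup in the Ren1 values was not tested. Cluster 13 held 160, 201, 234 and 84 nuclei. Fewer renin cells in the nuclei sampled and less renin RNA per cell cannot be told apart.

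The same order was seen over all nuclei and without cluster 13. Cluster 13 supplied 31.9%, 25.8%, 30.4% and 8.73% of the all-nuclei level. Over all nuclei, Ren1 was at 0.0293 (0.0227 to 0.0374), 0.0592 (0.0490 to 0.0709), 0.00635 (0.00287 to 0.0122) and 0.00291 (0.00104 to 0.00641), from 65.2, 118, 8.76 and 5.79 effective UMIs. It was 4.62-fold lower in Nos3 null than in control (log2 ratio -2.21, -3.42 to -1.18) and 20.4-fold lower in the double mutant than in Klf4 dEC (log2 ratio -4.35, -5.85 to -3.16). These comparisons share no library. Outside clusters 10 and 13 the levels were 0.0214, 0.0262, 0.0048 and 0.00172, with Ren1 above 0 in 14, 16, 6 and 5 of the other 21 clusters. The log2 ratios outside these clusters were -2.15 for Nos3 null over control and -3.93 for the double mutant over Klf4 dEC. Second to cluster 13 by mean was the unnamed cluster 12, at 0.155, 0.397, 0.0572 and 0, from 1.66, 5.52, 1.44 and 0 effective UMIs. The source of the Ren1 UMIs outside cluster 13 was not tested, so these levels are no separate view of renin cells. The macula densa-like cluster 19, whose cells border renin cells in the kidney, was at 0 in all 4 libraries, as were clusters 15, 16 and 22. Cluster 19 held only 68, 64, 66 and 54 nuclei, so its 0 says little at these Ren1 levels.

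A share of the Klf4 dEC excess came from 1 nucleus. In the endothelium-like cluster 10, Ren1 was at 0, 0.474, 0 and 0.03, and the 0.474 is the value of a single nucleus with 11 Ren1 UMIs of 817 (or the same multiple of both). The 4 juxtaglomerular markers were all at 0 in that cluster and library. Without cluster 10 the all-nuclei levels were 0.0306, 0.0413, 0.00666 and 0.00196, and the interval of Klf4 dEC (0.0329 to 0.0512) overlapped that of control (0.0237 to 0.0387). With UMIs gathered in few nuclei, the intervals are too narrow, since they treat UMIs as independent.

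**Figure D2:**
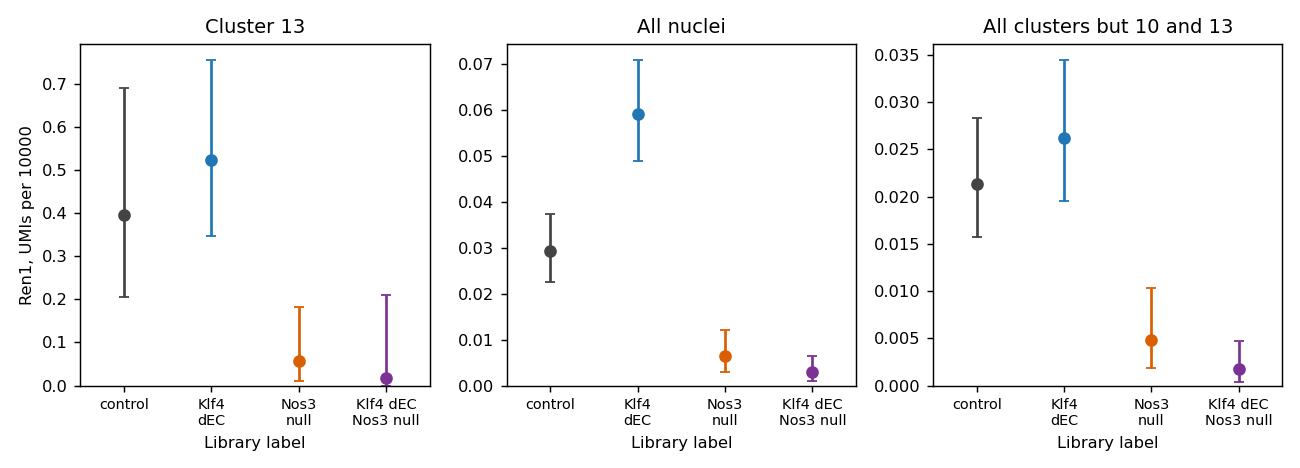
Ren1 level per library (x axis) in cluster 13, in all nuclei and in all clusters but 10 and 13, in UMIs per 10000 on linear axes of different range; points are values and bars exact 95% counting intervals. The control and Klf4 dEC libraries lie above both Nos3-/- libraries in each panel, for example 0.0293 and 0.0592 against 0.00635 and 0.00291 over all nuclei.

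How common such a drop is over all genes was counted with a rule chosen after the values were seen: both ratios for a label, each from a different pair of libraries, have counting intervals off 0 on the same side. For the Nos3 label these are Nos3 null over control and the double mutant over Klf4 dEC, and for the Klf4 label Klf4 dEC over control and the double mutant over Nos3 null. For the Nos3 label, Ren1 was lower by this rule in cluster 13, where 0.978% of 10122 genes were lower, over all nuclei, where 6.73% of 18484 were, and over the proximal tubule-like clusters, where 5.4% of 15972 were. In cluster 13 the value of each Nos3-/- library is that of a single nucleus, so that call is not firm. The source of the Ren1 UMIs in the proximal clusters was not tested. By the size limit, a log2 ratio of 1 or more after adding 0.1 to both levels, Ren1 was past it once, in cluster 13 of the double mutant over Klf4 dEC (-2.42), beside 4.08% of 4711 genes lower there. With 0.5 added in place of 0.1 that ratio was just inside the limit (-0.98).

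Agt (chromosome 8, 124556534 to 124569706, minus strand) encodes angiotensinogen, the substrate of renin, which the kidney makes in the late proximal tubule. Its level in proximal cluster 1, which had the highest S3 segment markers, was 0.1 (0.073 to 0.135), 0.0637 (0.0406 to 0.095), 0.294 (0.225 to 0.378) and 0.214 (0.17 to 0.266). The Nos3-/- libraries were both high, and their intervals did not overlap those of the other two. Agt was 2.93-fold higher in Nos3 null than in control (log2 ratio 1.55, 0.97 to 2.14) and 3.36-fold higher in the double mutant than in Klf4 dEC (1.75, 1.07 to 2.48).

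By the rule of both intervals, 7.66% of 13479 genes in cluster 1 were higher under the Nos3 label, so many genes shared this pattern with Agt. The median log2 ratio of all genes tested in cluster 1 was 0.09 for Nos3 null over control and 0.14 for the double mutant over Klf4 dEC. Over the 5 proximal clusters together the Agt levels were 0.05, 0.0383, 0.0824 and 0.0778, with ratios of 1.65-fold and 2.03-fold, and 9.04% of 15972 genes were higher there by the same rule. No Agt level reached the 0.5 needed to enter the count of genes past the size limit. The S3 markers in cluster 1 (7 of 8 genes in the table) summed to 129.9, 117.5, 87.4 and 112.9 UMIs per 10000, lower in both Nos3-/- libraries. Their part in the Agt values was not tested.

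Away from cluster 1 Agt rested on few UMIs. The unnamed cluster 12 gave 0.217, 0.182, 0.0911 and 0.168 from 2.32, 2.53, 2.29 and 1.49 effective UMIs; its mean of 0.164 beside 0.168 in cluster 1 is within the spread over libraries, and it was the higher of both in control and Klf4 dEC. The thin limb-like cluster 18 gave 0.107, 0.0846, 0.115 and 0.31 from 3.96, 2.16, 1.64 and 9.67 effective UMIs, with intervals that all overlapped. In proximal cluster 3, at the S1 end, Agt ran the other way, at 0.0841, 0.0439, 0.0186 and 0.0352. Cluster 1 supplied 23.3%, 18%, 59.5% and 34.7% of the all-nuclei level, while it held 9.85% to 11.2% of the nuclei.

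Ace (chromosome 11, 105967945 to 105989964, plus strand) encodes angiotensin-converting enzyme, known from vascular endothelium and from the brush border of the proximal tubule. In these nuclei most of it was tubular: the 5 proximal tubule-like clusters gave 74.8%, 73.0%, 71.6% and 66.4% of the all-nuclei level. Over those clusters the level was 0.198 (0.175 to 0.222), 0.233 (0.208 to 0.261), 0.208 (0.178 to 0.243) and 0.272 (0.242 to 0.304). The double mutant was the highest, 1.37-fold above control (log2 ratio 0.46, 0.22 to 0.70), and the intervals of control and Nos3 null overlapped. Under the Klf4 label Ace was higher in both pairs there, as were 7.15% of 15867 genes.

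Ace climbed along the proximal tubule. From the S1-like cluster 3 through 5, 6 and 0 to the S3-like cluster 1 its mean over libraries was 0.034, 0.0447, 0.123, 0.322 and 0.456. In cluster 0 the libraries stood at 0.232, 0.315, 0.333 and 0.408, and Ace was higher under the Nos3 label in both pairs of libraries, as were 5.99% of 13244 genes there. In the endothelium-like cluster 10 it was at 0.0487, 0.226, 0.0731 and 0.0617, from 2.04, 9.28, 2.98 and 2.07 effective UMIs. The Klf4 dEC value was the highest of the 4, 4.63-fold above control, with a counting interval of the log2 ratio from -0.03 to 5.42 that held 0.

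Agtr1a (chromosome 13, 30336441 to 30382867, plus strand) encodes the main AT1 receptor of the mouse kidney. Its level in cluster 13 was 2.82 (2.25 to 3.48), 1.98 (1.62 to 2.39), 1.9 (1.51 to 2.34) and 1.36 (0.907 to 1.96). The part of proximal tubule RNA in these values was not tested. Control was the highest, and the double mutant over control was just inside the size limit (log2 ratio -0.9995, counting interval of the unadjusted ratio -1.72 to -0.43). It was past the limit with median-ratio rescaling (-1.07), with 0.02 added in place of 0.1 (-1.04) and without mitochondrially encoded genes (-1.004). Agtr1a and Ren1 share this cluster, and both were lowest in the double mutant. In Nos3 null Ren1 was 6.83-fold below control (log2 ratio -2.77, -5.46 to -0.79) and Agtr1a 1.49-fold (-0.57, -1.02 to -0.12), with intervals that overlapped. Ren1 was highest in Klf4 dEC and Agtr1a in control, but the Ren1 intervals of those libraries overlapped.

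In the proximal tubule Agtr1a ran opposite to Ace. Its means from cluster 3 through 5, 6 and 0 to cluster 1 were 1.31, 1.45, 1.18, 0.829 and 0.46, and it was lowest in cluster 1 in all 4 libraries. Over the 5 proximal clusters it was at 0.884 (0.836 to 0.935), 1.15 (1.09 to 1.21), 0.909 (0.844 to 0.978) and 0.967 (0.91 to 1.03). Klf4 dEC stood above the other 3 without overlap, 1.30-fold over control. Those clusters held 70.4%, 76.3%, 61.0% and 79.4% of all Agtr1a. The second mouse AT1 gene, Agtr1b, stayed at or under 0.107 in cluster 13, its highest cluster.

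**Figure D3:**
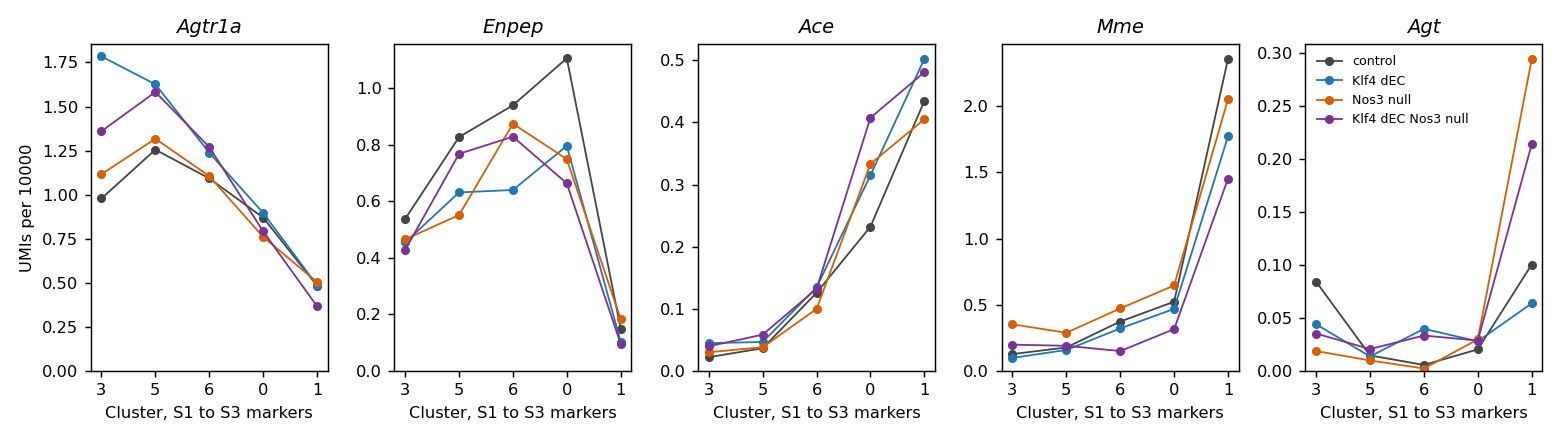
Levels of 5 genes in the 5 proximal tubule-like clusters, ordered from S1 to S3 markers (3, 5, 6, 0, 1), 1 line per library, in UMIs per 10000 on axes of different range. Agtr1a was lowest and Ace and Mme were highest in cluster 1 in each library, Enpep was lowest there, and Agt was highest in cluster 1 with the Nos3-/- libraries on top (0.294 and 0.214).

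Enpep (chromosome 3, 129269175 to 129332720, minus strand) encodes aminopeptidase A. Its highest level was in podocytes: the value in cluster 15 was 7.1 (6.26 to 8.02), 6.31 (5.47 to 7.24), 4.81 (4.1 to 5.62) and 6.01 (5.28 to 6.82), and the mean was 7.32 times that of the next cluster, with no overlap between them over the libraries. The podocyte-like cluster held 1.91% to 2.15% of nuclei and supplied 24.2%, 27.7%, 18.1% and 27.8% of all Enpep, while the 5 proximal clusters supplied 53.3%, 47.8%, 47.3% and 45.9%. Nos3 null was the lowest, 1.48-fold below control (log2 ratio -0.56, -0.86 to -0.27). The 8 podocyte markers summed to 929.9, 957.8, 857.5 and 1080 in the same columns, also lowest in Nos3 null; their part in the Enpep value was not tested.

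Within the proximal tubule the Enpep means in clusters 3, 5, 6 and 0 were 0.471, 0.694, 0.82 and 0.828, and then 0.132 in the S3-like cluster 1. Cluster 0 stood at 1.1 (1.01 to 1.21) in control against 0.795, 0.748 and 0.663, so control was the highest with no overlap, and Enpep was lower under the Nos3 label in both pairs, as were 3.53% of genes there. The endothelium-like cluster had 0.618, 0.732, 0.732 and 0.466, and the order of its neighbours, clusters 5, 10 and 18, was within the spread over libraries.

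Mme (chromosome 3, 63241537 to 63386030, plus strand) encodes neprilysin. Its highest level was in cluster 16, an intercalated cell-like cluster with the anion exchanger Slc4a1 (mean 2.40) and Kit (12.1), as type A cells have. There it was at 9.09 (8.14 to 10.1), 5.71 (4.96 to 6.53), 5.36 (4.25 to 6.68) and 6.3 (5.58 to 7.08). The cluster's mean was 3.09 times that of the next one, without overlap, and control was above the other 3 libraries, whose intervals overlapped. The other intercalated cluster, 14, which carried the anion exchanger pendrin (Slc26a4, mean 91.2) as type B cells do, had 0.482, 0.641, 0.75 and 0.835, so Mme differed between both kinds in all 4 libraries.

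Podocytes and the S3-like cluster came next for Mme. The podocyte-like cluster had 3.13 (2.58 to 3.76), 1.8 (1.36 to 2.33), 1.89 (1.45 to 2.42) and 1.73 (1.35 to 2.19), with control again the highest. Cluster 1 had 2.36 (2.22 to 2.51), 1.77 (1.64 to 1.91), 2.05 (1.86 to 2.26) and 1.45 (1.33 to 1.58). In cluster 1 Mme was lower under each label in both pairs of libraries, as were 3.64% of genes under the Nos3 label and 2.77% under the Klf4 label. In proximal cluster 3, at the S1 end, Mme ran the other way under the Nos3 label: it was at 0.126, 0.0975, 0.351 and 0.198, higher in both pairs, as were 2.09% of genes there. From cluster 3 to cluster 1 along the proximal tubule the means were 0.193, 0.203, 0.329, 0.488 and 1.91.

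Beyond the proximal tubule Mme reached 1.39, 1.15, 1.11 and 0.972 in the thick ascending limb-like cluster 4, and 1.65, 1.5, 1.24 and 1.01 in the macula densa-like cluster 19. In both, control had the highest value, but the intervals in cluster 19 all overlapped. Over all nuclei Mme was at 0.913, 0.695, 0.874 and 0.71: lower in both pairs under the Klf4 label, as were 4.14% of 18438 genes. Enpep over all nuclei, at 0.568, 0.489, 0.541 and 0.413, was lower in both of these pairs too. Levels over all nuclei also depend on the share of each cluster in a library, and that part was not tested.

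Atp6ap2 (chromosome X, 12587801 to 12617049, plus strand) encodes the (pro)renin receptor. In the intercalated cell-like cluster 14 its levels were 2.04 (1.7 to 2.42), 1.72 (1.44 to 2.03), 2.17 (1.69 to 2.75) and 1.57 (1.31 to 1.87), and those in cluster 16 were 1.00, 1.08, 0.791 and 1.53. The lowest library in cluster 14 (1.574) was just above the highest in cluster 16 (1.533), and Mme had the reverse order of these clusters. In the double mutant the counting interval of cluster 14 held the cluster 16 value. The intervals of the 4 libraries in cluster 14 overlapped. Over all nuclei it was at 0.278, 0.357, 0.287 and 0.362, higher under the Klf4 label in both pairs, as were 10.1% of 18438 genes.

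The proton pump genes were compared with Atp6ap2 because the protein belongs to that pump. Of the 20 subunit genes of the vacuolar proton pump in the table, 12 had their highest mean in cluster 14 or 16 and their second highest in the other one, among them Atp6v0d2 (mean 15.8 in cluster 14) and Atp6v0a4 (15.1 in cluster 16). Atp6v0d2 and Atp6v1g3, both among the 12, are also markers by which these clusters were named, so their peak there was partly given. The other 8, such as Atp6v0d1 and Atp6v1b2, peaked elsewhere. Of 7883 genes that reached 0.5 in a cluster mean, 7.48% peaked in cluster 14 or 16. This share asks only for the peak, not for the second place, and the subunits had no such lowest level.

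**Figure D4:**
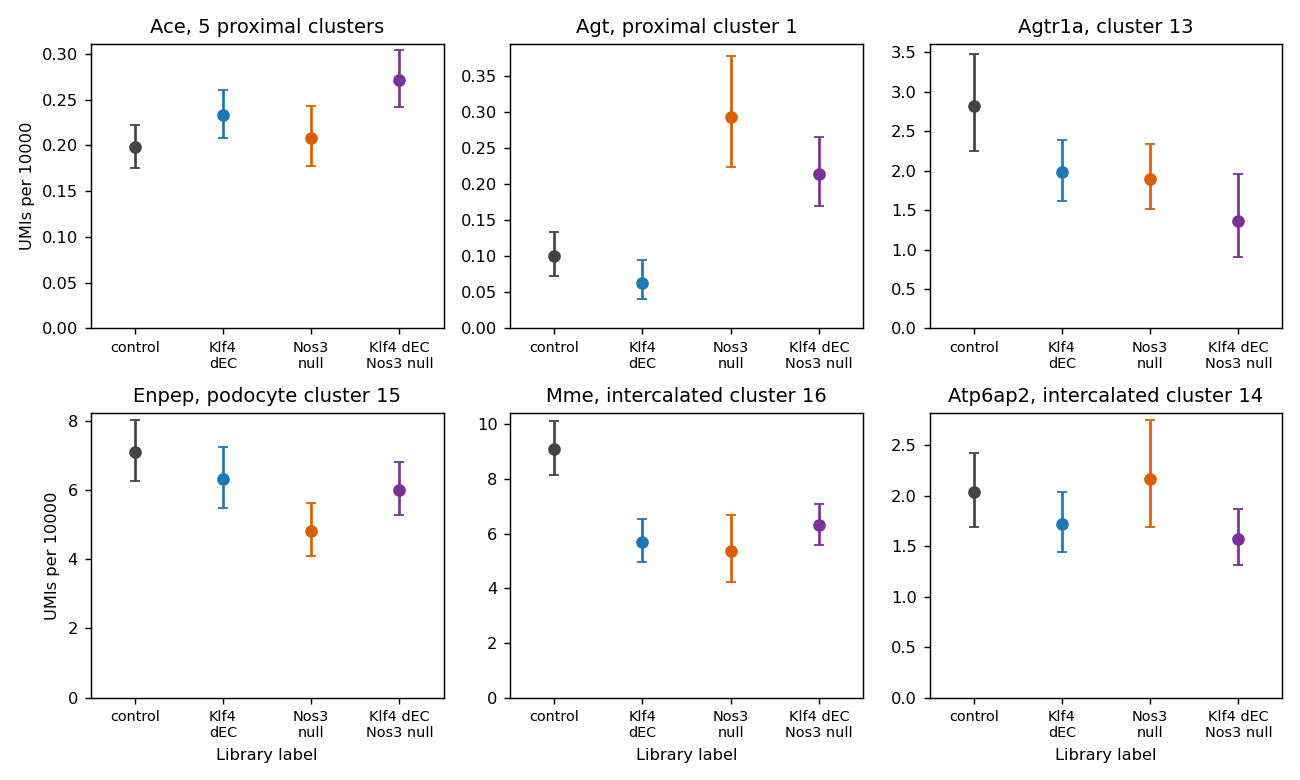
Level per library (x axis) of 6 genes, each in the cluster or class where it was described first, in UMIs per 10000 on linear axes that start at 0 and differ in range; points are values and bars exact 95% counting intervals. Agt was higher in both Nos3-/- libraries (0.294 and 0.214 against 0.1 and 0.0637), and Mme was higher in control (9.09) than in the other 3.

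Genes with the most similar pattern over the 23 clusters, by Pearson's r of log2 levels among 7883 genes, were found for the 4 members that reached 0.5 in a cluster mean. They were Adap2 (r = 0.94), Trpc1 (0.93) and Errfi1 (0.93) for Agtr1a. For Enpep they were Clic5 (0.92), Card10 (0.87) and Uaca (0.86), all highest in the podocyte-like cluster. For Mme they were Slc26a7 (0.72), Arhgap21 (0.69) and Gm34240 (0.67), all highest in cluster 16. For Atp6ap2 they were Plcg2 (0.85), Hepacam2 (0.83) and Sh2d4b (0.82), all highest in cluster 14. The values of r for Mme were the lowest of the 4.

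Between libraries, few pairs of a member and a cluster passed the size limit, counting pairs whose higher level reached 0.5. For Klf4 dEC over control, 3 of 39 pairs were higher and 0 lower, beside 7% of 95334 pairs over all genes past the limit (3.64% higher and 3.37% lower). The 3 were Atp6ap2 in clusters 8 and 21 and Mme in the cycling-like cluster 22, and the median log2 ratio was -0.13, beside -0.02 over all genes. For the double mutant over Klf4 dEC, 0 of 37 were higher and 3 lower, beside 8.07% (4.52% higher and 3.55% lower): Ren1 in cluster 13, and Agtr1a and Mme in cluster 22. For the double mutant over control, 1 of 35 was higher (Mme in cluster 12) and 3 lower (Agtr1a in clusters 12, 21 and 22), beside 7.25% (4.28% higher and 2.96% lower). The members' shares past the limit were 7.69%, 8.11% and 11.4%, the first 2 of them near those of all genes.

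The comparisons with Nos3 null held more such pairs, and they share that library. For Nos3 null over control, 7 of 49 pairs were higher and 0 lower, beside 15.1% over all genes (8.14% higher and 6.91% lower), and the median log2 ratio was 0.16, beside 0.06. For the double mutant over Nos3 null, 1 of 49 was higher and 12 lower, beside 16.7% (8.75% higher and 7.96% lower). The 12 included Agtr1a in the thick ascending limb-like cluster 2 (0.505 in Nos3 null, 0.0468 in the double mutant) and the endothelium-like cluster 10 (0.654 and 0.105). They also included Enpep in the connecting tubule-like cluster 11 (0.509 and 0.0706) and Mme in the principal cell-like cluster 8 (0.746 and 0.119).

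Proximal tubule markers moved with the Agtr1a and Enpep values. In the 9 distal clusters, from thick ascending limb to collecting duct, Agtr1a was at 0.0858, 0.0762, 0.365 and 0.0476, which is 9.70%, 6.62%, 40.2% and 4.92% of its proximal level. Enpep was there at 17.4%, 17.4%, 55.8% and 15.9% of its proximal level. The 12 proximal tubule markers, such as Lrp2 and Slc5a12, had medians of 8.46%, 8.65%, 23.7% and 7.10%, and in Nos3 null they ranged from 10.5% to 48.0%. In cluster 10 their sum was 28, 23.2, 54.3 and 18.7 UMIs per 10000, with none at 0. The part of proximal tubule RNA in the Nos3 null values was not tested. Ace, at 20%, 12.9%, 20.5% and 17.2%, did not stand out in Nos3 null. Mme (126.4%, 134.6%, 115.8% and 157.6%) and Agt (57.6%, 75.8%, 28.1% and 42%) had their lowest distal share in Nos3 null.

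**Figure D5:**
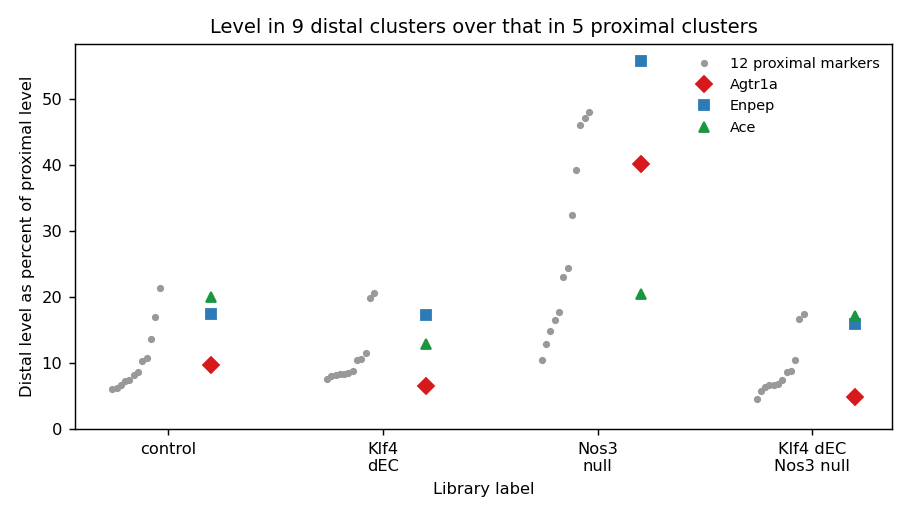
Level in the 9 distal clusters as a percentage of the level in the 5 proximal clusters, per library (x axis), for 12 proximal tubule markers (grey dots, sorted) and for Agtr1a, Enpep and Ace. In Nos3 null, Agtr1a (40.2%) and Enpep (55.8%) were higher than in the other libraries, and so were the markers, with a median of 23.7%.

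Other genes of the pathway were taken from 8 lists chosen by function. For angiotensin cleavage and degradation, 13 of 14 genes were present and 6 reached 1 UMI per 10000 in a cluster mean. Dpp4, a dipeptidyl peptidase of the cell surface, was at 18.9, 20.1, 12.1 and 14.3 in the podocyte-like cluster, where Enpep and Mme were high too. Ece1, endothelin-converting enzyme, was highest in the endothelium-like cluster (1.18, 0.95, 0.809 and 1.4). For Nos3 null over control, 9 of 121 pairs of this list were higher and 6 lower, beside 8.14% and 6.91% over all genes, and the median log2 ratio was -0.04, beside 0.06.

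Klk1, tissue kallikrein, was highest in the connecting tubule-like cluster, at 4.6, 5.42, 1.58 and 6.64. Its list, angiotensin formation outside the renin route, had 13 of 16 pairs lower and 0 higher for Nos3 null over control, beside 6.91% lower over all genes (median log2 ratio -1.43, beside 0.06). For the double mutant over Nos3 null 14 of 17 were higher, beside 8.75%. Most tested pairs of the list are Klk1 itself, whose low values were those of the Nos3 null library. Between the double mutant and Klf4 dEC, 2 of 19 were higher and 0 lower, beside 4.52% and 3.55%.

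Genes of renin release and transcription (15 of 15 present, 9 at 1 or more) had their highest levels in several classes. Casr, the calcium-sensing receptor, was at 9.93, 8.68, 6.93 and 7.28 in the macula densa-like cluster, and Meis1, a homeobox transcription factor, was at 5.27, 4.92, 4.27 and 3.71 in cluster 13. For Nos3 null over control, 3 of 162 pairs were higher and 9 lower, beside 8.14% and 6.91% over all genes (median log2 ratio 0.04, beside 0.06). For the double mutant over Klf4 dEC 4 of 162 were higher and 4 lower, beside 4.52% and 3.55% (median 0.29, beside 0.1). The mineralocorticoid receptor Nr3c2 was highest in cluster 17 (33.6, 37.5, 24.6 and 33.2), and Hsd11b2, which shields that receptor from glucocorticoids, was at 4.57, 4.58, 1.14 and 3.06 there. Kng2, a kininogen, was at 25.2, 23.4, 13.7 and 19.4 in the macula densa-like cluster. In the pump list, 10 of 277 pairs were higher and 16 lower for Nos3 null over control, beside 8.14% and 6.91%, so fewer than over all genes in either direction.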

How the data were processed

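Nuclei of mouse kidney cortex were measured in 4 libraries, 1 per genotype. The submitters' processing notes name Cell Ranger, Seurat and mm10, without versions or the treatment of doublets. The authors deposited a normalized signal for 21046 genes in 92 columns (23 clusters, 4 libraries). Every column sums to 10000. From whole-number reciprocals of the smallest values the nuclei of each column were recovered (26144 in all), and from them effective UMIs, with which exact 95% intervals were computed. On simulated columns all 32 recovered the true number of nuclei. Levels over several clusters were weighted by nuclei. Library ratios are log2 after adding 0.1, called past 1 where the higher level reached 0.5. Ratios given with intervals, or as folds, have nothing added. Clusters were named from marker lists. The members, the lists and the rule on both intervals of a label were chosen with earlier results of these data known. Named genes are the members, the 3 genes most like each, and list genes at 1 or more, or past the limit. Agtr1b is named although it is in neither. Python 3.11.15, pandas 2.3.3, numpy 2.4.6 and scipy 1.17.1 were used.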

Additional observations from a re-analysis of the deposited data

Results flagged for a closer look

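For 5 results, the 2 ratios of 1 label had counting intervals off 0 on opposite sides; with 1 library per genotype the difference between them was not tested. Agtr1a over all nuclei had log2 ratios of 0.357 for Nos3 null over control and -0.583 for the double mutant over Klf4 dEC, and of 0.303 for Klf4 dEC over control and -0.637 for the double mutant over Nos3 null. Within the proximal tubule-like clusters, which held 37.4% to 47.5% of a library's nuclei, it was at 0.884, 1.15, 0.909 and 0.967. The part of these shares of nuclei in the all-nuclei ratios was not tested. Mme in the cycling-like cluster 22, which holds 12 to 17 nuclei per library, had 2.49 and -1.70 for the Nos3 label and 2.21 and -1.98 for the Klf4 label. Enpep in proximal cluster 5 had -0.39 for Klf4 dEC over control and 0.478 for the double mutant over Nos3 null.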

How the results depend on the processing

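No paired analysis was possible because each genotype has 1 library. The 36 alternatives for the members' mean levels moved each by less than 1 SD over the libraries: rescaling without mitochondrially encoded genes, an unweighted mean over clusters for Ace, and leaving out each library. Leaving out a library cannot move such a mean by 1 SD, so those alternatives could not have failed. The Ren1 mean in cluster 13 ran from 0.157 without Klf4 dEC to 0.325 without the double mutant. The 145 alternatives for the members' log2 ratios (added amounts of 0.5 and 0.02, median-ratio rescaling, the same mitochondrial and weighting changes) changed 0 signs. An added amount cannot change the sign of a ratio, so only the other alternatives could have done so. Median-ratio rescaling kept the counts of all pairs past the limit within 1.5 times, but turned the majority from higher to lower for the double mutant over Klf4 dEC (46.75% higher instead of 55.97%) and for Nos3 null over control (48.6% instead of 54.1%). Other settings moved them, as listed next in the order lowest level 0.2, no lowest level, added amount 0.5. For Klf4 dEC over control 6678 became 14547, 20370 and 1763. For Nos3 null over control 14879 became 28444, 37450 and 6346. The 17163 of the double mutant over Nos3 null became 31992, 41609 and 7615. The 8009 of the double mutant over Klf4 dEC became 16746, 22704 and 2331. The 7176 of the double mutant over control became 15091, 20454 and 2020. With no lowest level 42.1% of the pairs past the limit were higher for Nos3 null over control. The members' own pairs followed: for Nos3 null over control the 7 higher and 0 lower became 19 and 1 at a lowest level of 0.2, and 2 and 0 with 0.5 added. For the double mutant over Nos3 null the 1 and 12 became 1 and 26, and 0 and 5. Chosen after seeing the data, Ren1 over all nuclei without cluster 10, without clusters 10 and 13, and without mitochondrial genes stayed inside its intervals. Agt over all proximal clusters in place of cluster 1 gave 0.72 and 1.02 in place of 1.55 and 1.75. Of the 12 most similar genes, 5 remained among the top 3 by Spearman's rho. The cause of these shifts was not tested. Depth limits Ren1, Agt outside cluster 1 and Ace in endothelium, where most values rest on under 10 UMIs.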
